A study of Mus musculus with 2 samples.

Results

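The interferon-gamma program of T cells was examined at 5 gene loci in a genome-wide list of TCF1-bound intervals from immature γδ thymocytes. The loci were Tbx21, Eomes, Ifng, Il12rb2 and Il2rb, and each was represented by 1 fixed window in the mm9 mouse genome. The windows were chr11:96910000-97030000 for Tbx21, chr9:118330000-118450000 for Eomes, chr10:117780000-117980000 for Ifng, chr6:67210000-67340000 for Il12rb2 and chr15:78260000-78380000 for Il2rb. Every listed interval that overlapped a window was taken as a member, whatever its strength. This gave 72 of 104683 intervals, with 24 at Tbx21, 11 at Eomes, 4 at Ifng, 5 at Il12rb2 and 28 at Il2rb. The windows spanned 690 kb together, and 0 members crossed a window's edge.

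The series held 2 libraries from sorted γδ thymocytes of C57BL/6 mice, 1 immunoprecipitated with an anti-TCF1 antibody and 1 of input chromatin made without antibody. Both carried the genotype TCRbeta KO.Sox13tg+.Sox13 ECFP KI/+, that is, no TCRβ gene, a Sox13 transgene, and ECFP inserted into 1 of the Sox13 alleles. The sorted cells were positive for CD24 and had little or no CFP, the reporter of Sox13. No source used here gives the promoter of the transgene or the number of mice pooled. The intervals came from the TCF1 library alone, the input was not analysed here, and the read depth is unknown, so no value below has a replicate, a control measured the same way or a test between conditions. Counting errors are 95% exact Poisson intervals, which treat neighbouring intervals as independent.

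T-bet (Tbx21) and Eomes are T-box transcription factors that activate Ifng, the gene of interferon-γ, in natural killer cells, CD8 T cells and type 1 effector T cells. The receptor chain encoded by Il12rb2 carries the interleukin-12 signal that favours this program, and the chain encoded by Il2rb (CD122) is shared by the interleukin-2 and interleukin-15 receptors and marks interferon-γ-producing γδ T cells. γδ thymocytes divide broadly into those programmed for interferon-γ and those programmed for interleukin-17, and SOX13 is tied to the latter. TCF1 (Tcf7) is an HMG-box factor of T cell development whose DNA contact centres on the letters CTTTG.

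The sequences around the gene starts are shown first, so that the letters at these genes can be read beside the core of the TCF1 motif. RefSeq promoters (GRCm38.p6; 300 bases, of which the last 50 follow the start) were at hand for 4 of the 5 genes, all but Il2rb. Printed here are those of Tbx21 and Eomes, whose windows held wide intervals near the centre, and that of Ifng, whose window was empty there. Each is read 5′ to 3′ along the gene, and capitals mark CTTTG or its reverse complement CAAAG.
Tbx21 (chr11:97115282-97115581, minus strand): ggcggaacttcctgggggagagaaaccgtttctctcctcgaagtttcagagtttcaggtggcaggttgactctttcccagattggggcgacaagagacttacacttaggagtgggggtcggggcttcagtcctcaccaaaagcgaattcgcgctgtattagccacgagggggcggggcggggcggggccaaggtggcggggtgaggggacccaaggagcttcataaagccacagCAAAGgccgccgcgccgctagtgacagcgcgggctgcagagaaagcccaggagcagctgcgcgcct
Eomes (chr9:118477939-118478238, plus strand): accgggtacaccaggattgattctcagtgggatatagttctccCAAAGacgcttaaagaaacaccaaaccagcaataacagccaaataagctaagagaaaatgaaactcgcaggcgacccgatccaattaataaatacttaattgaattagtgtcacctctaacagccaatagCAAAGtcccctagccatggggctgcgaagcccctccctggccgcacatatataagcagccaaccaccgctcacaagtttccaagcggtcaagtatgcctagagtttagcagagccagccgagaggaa
Ifng (chr10:118440796-118441095, plus strand): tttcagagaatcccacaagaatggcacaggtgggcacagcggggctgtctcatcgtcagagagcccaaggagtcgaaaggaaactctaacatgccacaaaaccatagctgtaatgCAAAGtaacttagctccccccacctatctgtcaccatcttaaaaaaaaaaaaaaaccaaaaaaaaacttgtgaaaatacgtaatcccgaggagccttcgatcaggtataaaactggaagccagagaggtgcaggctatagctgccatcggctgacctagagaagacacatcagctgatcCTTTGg

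The Tbx21 promoter held 1 core match, those of Eomes and Ifng held 2 each, and that of Il12rb2 held 0. Of all 32851 promoters of this length, 53.9% held the core on either strand. The longer form CTTTGAA and its variants CTTTGAT or else CTTTGTT, which all contain the core, were searched on both strands too. None of the 4 promoters held one, against 13.9% of all promoters with at least 1. The promoters are on GRCm38 and the intervals on mm9, so no interval was placed on a promoter. A match or its absence describes only the letters in these 300 bases. The gene starts were not placed within the windows either, so a distance from a window's centre is not a distance from the gene.

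In these windows, the density of TCF1 intervals was highest at Il2rb and Tbx21 and lowest at Ifng. Il2rb had 23.3 intervals per 100 kb (15.5 to 33.7) and Tbx21 had 20 (12.8 to 29.8). Eomes followed with 9.17 per 100 kb (4.58 to 16.4), Il12rb2 with 3.85 (1.25 to 8.98) and Ifng, the cytokine gene itself, with 2 (0.545 to 5.12). Of the neighbours in this order, Tbx21 exceeded Eomes by 2.18 times (95% interval 1.03 to 4.93). With intervals at most 1 kb apart joined, 15 places at Tbx21 against 9 at Eomes gave 1.67 times (0.683 to 4.32), which no longer exceeded counting error. At 0.5 times the window size, Tbx21 held 11 intervals and Eomes 9, and at 2 times the size they held 40 and 20. The other steps lay within counting error. Il2rb to Tbx21 was 1.17 times (0.652 to 2.10), Eomes to Il12rb2 2.38 times (0.763 to 8.75) and Il12rb2 to Ifng 1.92 times (0.414 to 9.69). The order depended on the window size. At 2 times the size, Il12rb2, with 7 intervals, had a lower density than Ifng, with 14. At 0.5 times the size, Il2rb, with 10, fell just below Tbx21, and Ifng and Il12rb2 both held 0.

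**Figure D1:**
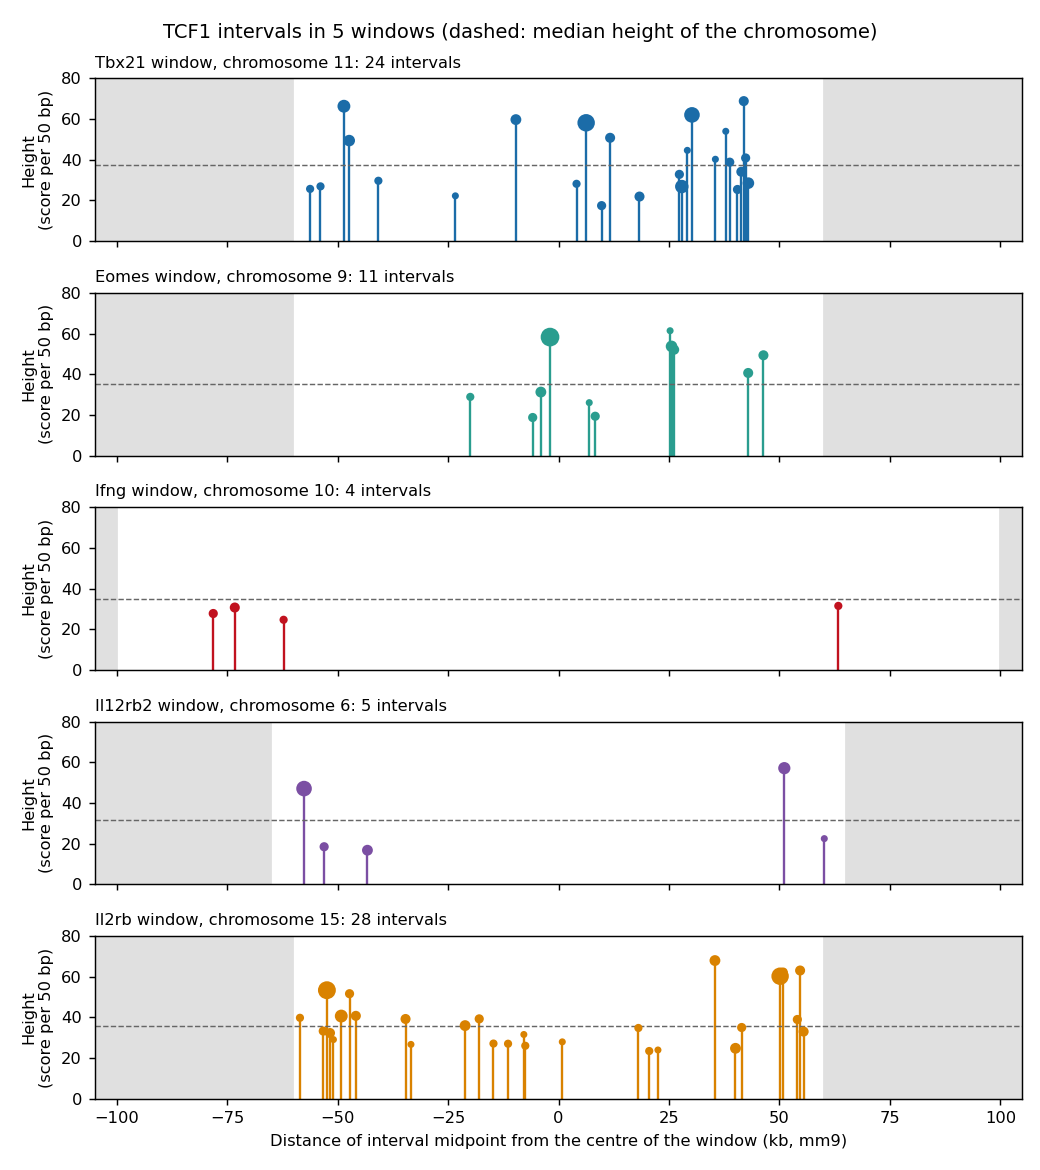
Each panel shows 1 window, with the distance of each interval's midpoint from the window centre (kb) on the x axis and its height (score per 50 bp) on the y axis; dot area grows with interval width, the dashed line is the median height of the chromosome, and grey marks positions outside the window. The Ifng and Il12rb2 panels are empty at their centres, whereas Tbx21, Eomes and Il2rb have intervals within 10 kb of theirs. The centre is that of the fixed window, and the position of the gene within it was not determined.

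Strength was compared by height, the deposited score divided by the interval's width and multiplied by 50 bp, because wider intervals had larger scores. The median height over the whole list was 34.0, and heights of 57.0 or more formed the upper 10% of the list. An interval of that kind is called high here.

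At Tbx21, the gene of T-bet, the 24 intervals covered 6.55 kb, or 5.46% of the window, against 1.66% of chromosome 11 as a whole. Among 987 other windows of 120 kb on chromosome 11, the median count was 4, and 6.08% held at least 24. The 5 highest Tbx21 intervals were also the 5 high ones, where 11.8% of the intervals of chromosome 11 were high. The highest was chr11:97011801-97012050, at 68.9, followed by chr11:96921201-96921650 at 66.3, chr11:96999851-97000550 at 62.1, chr11:96960201-96960500 at 59.8 and chr11:96975801-96976700 at 58.2. They were spread over the window, from 48.6 kb below its centre to 41.9 kb above it. The remaining intervals went down to 17.4, and the median of all 24 was 36.5, close to the chromosome's 37.6. Thus the Tbx21 window differed from its chromosome in how many intervals it held, while their median height was much like that of the chromosome.

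The widest Tbx21 interval, chr11:96975801-96976700, was 900 bp wide and had the largest score of the window, 1047, which was 17.9% of the window's summed score. It lay 6.25 kb above the centre. The next listed interval below it had a height of 28.2, and the next 2 above it had 17.4 and 50.8. The upper 40.0 kb of the window was its fullest part, with 12 of the 24 intervals and 45.9% of the score, against 6 intervals in each of the other 2 stretches of that length. Within it stood a group of 4 intervals in 3.30 kb (chr11:96997251-97000550) and one of 5 in 2.75 kb (chr11:97010401-97013150), both formed by joining intervals at most 1 kb apart. After such joining, the window held 15 separate places. In the RefSeq gene table Tbx21 lies between Osbpl7 and Tbkbp1, so part of these intervals may lie at a neighbour, which was not tested.

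At Eomes, which encodes the second T-box factor, the 11 intervals covered 3.20 kb, or 2.67% of the window, against 1.13% of chromosome 9. The median of 1006 windows of 120 kb on that chromosome was 4, and 11.6% held at least 11. Most of the score fell on few intervals. The interval chr9:118387551-118388600 was 1050 bp wide, the widest of all 72 members, and its score of 1223 was the largest of the 72 and made up 42.0% of the score in the window. Its midpoint lay 1.92 kb below the window's centre, and its height was 58.3. Around it were 2 lower intervals below, chr9:118384051-118384250 at 18.7 and chr9:118385851-118386150 at 31.2. Another 2 stood above it, chr9:118396901-118397000 at 26 and chr9:118398201-118398400 at 19.3.

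The other strong signal at Eomes lay 25.3 to 26.2 kb above the centre, as 3 intervals within 1.10 kb. These were chr9:118415201-118415300 at a height of 61.4, chr9:118415401-118415750 at 53.7 and chr9:118416051-118416300 at 52.1. The first was only 100 bp wide, and 99.0% of all listed intervals of that width were lower. Farther up stood chr9:118432801-118433050 at 40.6 and chr9:118436251-118436500 at 49.3. The lower part of the window was empty up to chr9:118369951-118370100 at 28.8, which began 39.951 kb from the edge. Heights in the upper 40.0 kb (40.6 to 61.4) lay above all but 1 of those in the central 40.0 kb, the exception being the widest interval. With 2 of 11 intervals high, against 10.4% on chromosome 9, the median was 40.6 and the chromosome's was 35.1. Eomes stands between Cmc1 and Golga4 among the named protein-coding genes of the RefSeq table.

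At Ifng the window was larger, 200 kb, and yet held 4 intervals, none of them high. The lower side had chr10:117801751-117801950 at a height of 27.8, chr10:117806601-117806850 at 30.7 and chr10:117817701-117817850 at 24.7. The upper side had 1, chr10:117943251-117943400 at 31.5. Their scores ran from 74.0 to 153.5 and their widths from 150 to 250 bp. All 4 were below the median height of the list (34.0) and of chromosome 10 (35). Of the intervals of chromosome 10, 11.2% were high, and at 4 members a count of 0 says little against that share.

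The centre of the Ifng window had no listed interval over 125.4 kb, from 62.1 kb below the centre to 63.3 kb above. Of the 5171 gaps between neighbours on chromosome 10, 3.27% were at least this long, but such gaps made up 25.7% of the length between the chromosome's first and last interval. A stretch this empty was thus uncommon among gaps and common along the chromosome. The count of 4 compared with a median of 5 over 632 windows of 200 kb, of which 65.3% held at least 4. This place depended on the window size. Fewer intervals than at Ifng were found in 34.7% of windows at this size and in 62.9% at 2 times the size, where the Ifng window held 14. At 0.5 times the size it held 0, and the share was 0%. A count of 0 gives 0% whatever the other windows hold, so that value does not place the locus. The highest interval of 76.7% of those windows was at least as high as 31.5. An interval that is not listed does not show that TCF1 was absent, since the depth and the threshold are unknown. The nearest protein-coding genes in the RefSeq table were Iltifb on the lower side and Dyrk2 on the upper.

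At Il12rb2, the interleukin-12 receptor chain, 5 intervals lay towards the edges of a 130 kb window. The largest score, 659.5, belonged to chr6:67217051-67217750, which was 700 bp wide with a height of 47.1, 57.6 kb below the centre. The highest was chr6:67325901-67326300 at 57.2, with a width of 400 bp and a score of 457.25, 51.1 kb above the centre. The other 3 were chr6:67221851-67222050 at 18.5, chr6:67231601-67231900 at 16.8 and chr6:67335101-67335200 at 22.5. This window thus had 2 intervals at 47.1 or more and 3 at 22.5 or less, with nothing between. The 700 bp interval was higher than 79.6% of the intervals of chromosome 6, but than only 38.9% of all listed intervals of its width. Of the 5, 1 was high (20%), where 8.90% of the intervals of chromosome 6 were, and at 5 members this count says little against that share.

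Between the lower and the upper intervals at Il12rb2 lay 94.0 kb without a listed interval. On chromosome 6, 6.96% of 5012 gaps were at least that long, and they made up 38.6% of its length. The count of 5 stood against a median of 3 over 1124 windows of 130 kb, and 35.1% of these held at least 5. The highest interval was matched or exceeded in 23.8% of them. Il12rb2 has Serbp1 and Il23r, the interleukin-23 receptor gene of the interleukin-17 program, as its neighbours in the RefSeq table, so the outer intervals cannot be assigned to Il12rb2 from these data.

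At Il2rb, the CD122 chain, the 28 intervals covered 7.05 kb, or 5.88% of the window, against 1.24% of chromosome 15. The median of 835 windows of 120 kb on that chromosome was 3, and 2.16% held at least 28. Il2rb thus stood farther up its chromosome's windows than the other 4 loci did on theirs, but at 0.5 times the window size Eomes came first, with fewer intervals in 94.6% of windows against 93.4% for Il2rb. The 5 highest intervals were chr15:78355251-78355550 at 68.0, chr15:78374551-78374800 at 63.1, chr15:78370751-78370950 at 62.3, chr15:78369701-78370600 at 60.3 and chr15:78267101-78268050 at 53.4. The first 4 of these were the high ones of this window, and 10.4% of the intervals of chromosome 15 were high. The others went down to 23.5, and the median of 34.9 was close to the chromosome's 35.6.

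All 4 high Il2rb intervals stood in the upper part of the window, and the median height was lowest in the central part. The lower 40.0 kb held 11 intervals with a median height of 39.3 and none of them high, and the upper 40.0 kb held 10 with a median of 37.0. The central 40.0 kb held 7, with a median of 28.0, a range of 26.1 to 39.3 and 10.1% of the window's score. Near the lower edge, 4 intervals within 2.45 kb (chr15:78266651-78269100) included the 950 bp wide chr15:78267101-78268050, whose score was 1015. Near the upper edge, chr15:78369701-78370600 was 900 bp wide and had the largest score of the window, 1085, and a further 3 intervals stood within 1.65 kb (chr15:78373951-78375600). The interval nearest the centre, chr15:78320801-78320900 at 28.0, was 100 bp wide and lay 0.851 kb above it. After joining at 1 kb the window held 21 places. In the RefSeq table Il2rb stands between Tmprss6 and C1qtnf6, and the share of the outer intervals that belongs to such neighbours was not tested.

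**Figure D2:**
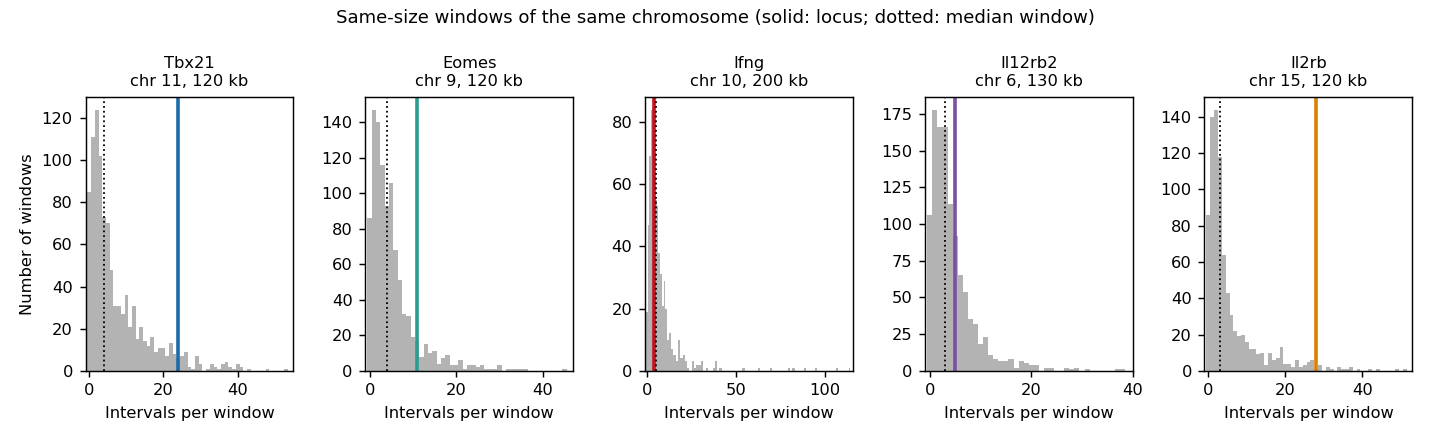
Grey bars give the number of same-size windows (y axis) by the number of intervals they hold (x axis) on the chromosome of each locus; the solid line is the locus window and the dotted line the median window. Il2rb (28 intervals) and Tbx21 (24) lie in the upper tail of their chromosomes, Eomes (11) below them, and Il12rb2 (5) and Ifng (4) near the middle.

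Each window was also set against its own surroundings. In the 1 Mb on each side of the window, Il2rb had 18.3 intervals per 100 kb (16.5 to 20.3) and Tbx21 had 13.8 (12.2 to 15.5). Eomes had 8.10 (6.90 to 9.45), Ifng 4.75 (3.84 to 5.81) and Il12rb2 2.70 (2.03 to 3.52). The window exceeded its flanks by 1.45 times at Tbx21, 1.42 times at Il12rb2, 1.28 times at Il2rb and 1.13 times at Eomes, and was 0.421 times the flanks at Ifng. At all 5 loci the density of the flanks fell inside the window's counting interval, so no difference in density between window and flanks was detectable at these counts. With 4 intervals at Ifng and 5 at Il12rb2, these comparisons have little precision. The flanks themselves were uneven, with 267 intervals above Il2rb against 99 below it, and 129 above Eomes against 33 below it. The median height in the flanks was 41.6 at Il2rb, against 34.9 in the window, and 38.7 at Tbx21, against 36.5. At Ifng it was 30.15, against 29.2. At Eomes it was 35.3, against 40.6, and at Il12rb2 15.1, against 22.5. These differences in height were not tested.

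The highest interval at Tbx21 (68.9) was matched or exceeded in 17.1% of the same-size windows of its chromosome, that at Il2rb (68.0) in 12.6%, that at Eomes (61.4) in 23.9%, that at Il12rb2 (57.2) in 23.8% and that at Ifng (31.5) in 76.7%. Ifng was thus the 1 locus whose highest interval was below that of most windows of its chromosome. The highest interval of a window tends to be higher where the window holds more intervals, so these shares are not independent of the counts. Of the 72 members, 36 lay above the median height of the list, and 12 (16.7%) were high, against 10% of the list by construction. The median height of the members was 33.7, against 34.0 for the list, with quartiles at 26.9 and 49.8 against 21.5 and 46.1. By score, 8 members (11.1%) were in the upper 10% of the list, with a score of at least 453.5. These were 3 at Tbx21, 2 at Il12rb2, 2 at Il2rb and 1 at Eomes.

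**Figure D3:**
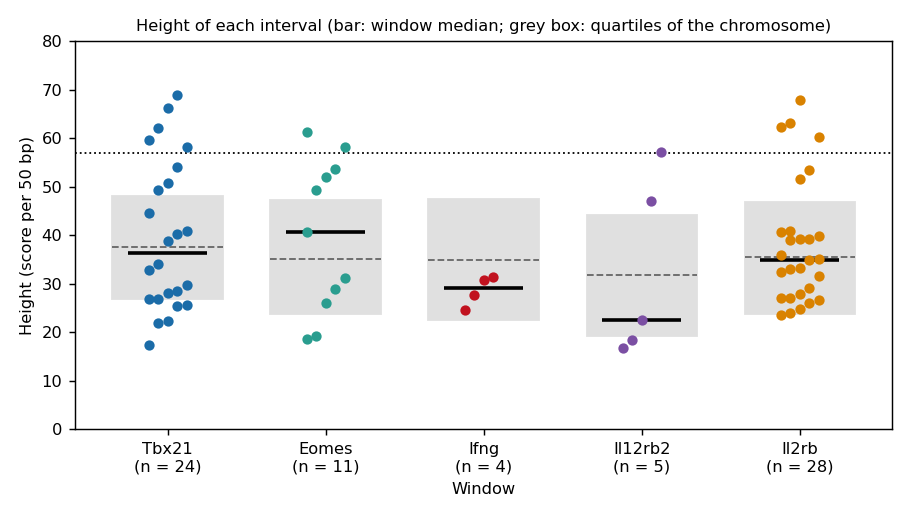
Each dot is 1 interval, with its height (score per 50 bp) on the y axis and its window on the x axis; the black bar is the window's median, the grey box and dashed line give the quartiles and median of all intervals of the same chromosome, and the dotted line at 57.0 bounds the upper 10% of the list. The 4 Ifng intervals lie between 24.7 and 31.5, inside the box, while the other windows reach 57.2 to 68.9.

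Width and height varied together among the members as in the list. The Spearman correlation of width with height was 0.45 over the 72 members and 0.40 over the list, given as a description because intervals of 1 library are not independent. There were 7 members of 500 bp or more (9.72%, against 9.68% of the list). Of these 7, all but 1 had heights of at least 47.1. The exception was chr11:96997651-96998150 at Tbx21, 500 bp wide with a height of 26.8, higher than 19.5% of all intervals of that width. The 6 members that exceeded 95% of the intervals of their own width were 100 to 300 bp wide. Besides the 100 bp interval at Eomes, chr11:97011801-97012050 at Tbx21 was higher than 98.1% of the intervals of 250 bp, and chr15:78370751-78370950 at Il2rb was higher than 97.5% of those of 200 bp. By contrast the 1050 bp interval at Eomes was higher than 63.9% of its width class, the 900 bp intervals at Tbx21 and Il2rb than 62.1% and 69.1%, and the 950 bp interval at Il2rb than 50.7%.

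**Figure D4:**
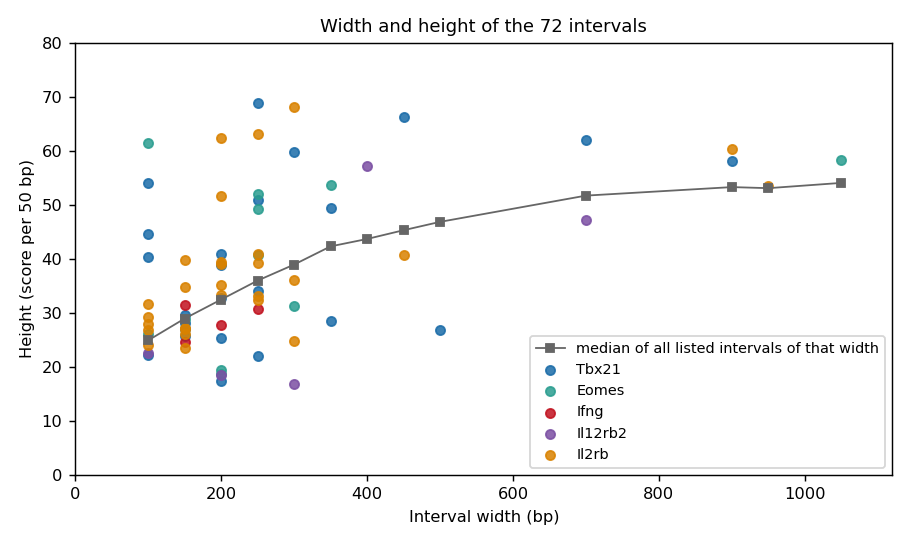
Width (bp, x axis) and height (score per 50 bp, y axis) are shown for the 72 intervals, coloured by window, with grey squares for the median of all listed intervals of the same width. The widest member, at Eomes (1050 bp), lies near the grey line, and the 100 bp interval at Eomes (61.4) and the 250 bp interval at Tbx21 (68.9) lie far above it.

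The windows have fixed edges, and the intervals nearest to them show what the edges leave out. Below the Il2rb window, chr15:78258801-78259500 stood 0.5 kb outside the edge, with a width of 700 bp and a height of 56.98, just under the limit for a high one, whereas the first interval inside had a height of 39.8. Below the Tbx21 window, chr11:96905801-96905950 was 4.05 kb outside at a height of 51.5, and the first inside was at 25.7. At Eomes the nearest outside, 8.80 kb above the edge, had a height of 28.6, against 49.3 for the last inside. At Ifng the nearest on either side were 22.1 and 58.4 kb away, at 20.9 and 21.4, and at Il12rb2 54.3 and 57.6 kb away, at 25.8 and 19.6. On the sides not yet named, the nearest lay 12.3 kb above Il2rb (height 51.25), 19.0 kb above Tbx21 (16.6) and 22.45 kb below Eomes (14.5). The Ifng and Il12rb2 windows thus had no listed interval just outside either edge, whereas a wide one adjoined the lower edge of the Il2rb window.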

How the data were processed

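TCF1 ChIP-seq intervals of 1 library were used; the input library had no file and was not used here. The deposited file gives position and 1 score per interval, in steps of 0.25, with no header. Per the submitters' processing notes the genome build is mm9, while the aligner, the interval caller, its threshold and what the score stands for are stated in no source used here. Starts lay on a 50 bp grid and ends 1 bp short of it, so ends were read as inclusive, and positions count from 1.

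For each window, adjoining windows of equal size were laid from the chromosome's first to its last interval, leaving out any that overlapped the locus, and intervals overlapping each were counted. Assembly gaps were not removed. All intervals were named where a window held at most 12, and the 5 highest otherwise; others were added after their values were seen. The planned list of further type 1 genes needs an mm9 annotation and was not analysed here. Members and lists were chosen with earlier results of these data known. The 1 Mb flanks, gap lengths, stretches within windows (members placed by midpoint), width classes and density ratios were chosen after seeing the data. Ratios have exact (Clopper-Pearson) intervals for counting error. The window counting was tested on simulated data. Gene order and promoters came from RefSeq tables of GRCm38, with 5 of 5 genes and 4 promoters matched. Computation used scipy 1.17.1, pandas 2.3.3 and numpy 2.4.6 under Python 3.11.15, and figures matplotlib 3.10.9.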

Additional observations from a re-analysis of the deposited data

How the results depend on the processing

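Windows of the same chromosome with fewer intervals than the locus made up 93.9% for Tbx21, 88.4% for Eomes, 34.7% for Ifng, 64.9% for Il12rb2 and 97.8% for Il2rb. Those with a lower highest interval made up 82.9% for Tbx21, 76.1% for Eomes, 23.3% for Ifng, 76.2% for Il12rb2 and 87.4% for Il2rb. Of 70 alternative values of these shares, 35 stayed inside the 95% Clopper-Pearson interval of the value reported and 35 moved outside it, and the cause was not tested except where stated. That interval treats the windows as independent draws, although they adjoin and cover the chromosome. It therefore serves only as a yardstick for a move, and its width depends on the number of windows. Against windows of all 19 autosomes, the share by count was 97.5% for Tbx21 and 61.6% for Il12rb2, and the share by highest interval was 88.9% for Tbx21, 79.2% for Eomes, 27.3% for Ifng and 71.2% for Il12rb2. Leaving out empty windows, the share by count was 61.3% for Il12rb2. With windows of 0.5 times the size, the share by count was 91.1% for Tbx21, 94.6% for Eomes, 0% for Ifng, 0% for Il12rb2 and 93.4% for Il2rb, and the share by highest interval was 85.8% for Eomes, 0% for Ifng, 0% for Il12rb2 and 61.8% for Il2rb. With 2 times the size, the share by count was 91.5% for Tbx21, 62.9% for Ifng, 50.4% for Il12rb2 and 95.4% for Il2rb, and the share by highest interval was 70.5% for Tbx21, 62% for Eomes, 63.8% for Il12rb2 and 84.4% for Il2rb. With the upper 50% of intervals by score, the share by count was 90.4% for Tbx21, 20.3% for Ifng, 56.5% for Il12rb2 and 96.3% for Il2rb, and the share by highest interval was 71.8% for Eomes and 29.2% for Ifng. With intervals joined within 1 kb, the share by count was 90.5% for Tbx21 and 70.6% for Il12rb2, and the share by highest interval was 71.3% for Tbx21, 79.7% for Il12rb2 and 90.1% for Il2rb. The values of 0% arose because the inner parts of the Ifng and Il12rb2 windows held 0 intervals, which gives 0% whatever the other windows hold. They are among the 35 that moved. Shifting the grid by 0.5 of a window moved no value outside its interval. The order of the loci by the share by count thus changed at 0.5 times the size, where Eomes came before Il2rb and Tbx21. It also changed at 2 times the size, where Ifng (62.9%) came before Il12rb2 (50.4%). Joining within 1 kb, an alternative for the ratio of Tbx21 to Eomes chosen after seeing the data, lowered it from 2.18 to 1.67, with 1 inside the interval. The doubled window held 14 intervals at Ifng and 7 at Il12rb2. No paired analysis was possible because a single list of intervals was analysed, and no replicate could be left out. The unknown read depth and threshold limit all statements on weak or missing intervals.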
